A study of Mus musculus with 8 samples.

Results

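The circular RNAs of titin (Ttn) were taken from a table of circular RNAs of the mouse heart by its gene name column, which gave 160 circles of the 27391 in the table. Of these, 139 were exonic circles and 21 were intronic circles (ciRNA). Hearts came from wild-type males, 4 of them sham-operated and 4 with transverse aortic constriction (TAC), and were taken 8 weeks after surgery. TAC is a narrowing of the aorta that makes the left ventricle pump against a raised pressure, and the comparison asks which circles differ under lasting pressure overload. Both groups had the same genotype and differed by the operation, and each mouse gave 1 library. The labels give neither the part of the heart, the age nor the strain.

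Titin is a giant elastic protein of the sarcomere. It runs from the Z-disc, where thin filaments are anchored, through the extensible I-band to the A-band, where it lies along the thick filament, and ends in the M-band. Much of its spring lies in I-band segments that the heart splices in or out, among them the PEVK segment, which is rich in proline, glutamate, valine and lysine, and the N2B segment, which is used in heart titin. The splicing factor RBM20 represses many of these I-band exons, and circles from the same exons are known to depend on it in the heart. A circle arises when the end of an exon, the donor, is joined back to the start of an exon lying no later in the gene, the acceptor. A back-spliced read crosses that closing junction. It therefore shows which exons close the circle, whereas the exons inside and the spliced length are those of the annotated transcript.

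Exons were numbered in the 312-exon transcript of GENCODE M21 (mm10), in which Ttn lies on the minus strand of chromosome 2 between 76703980 and 76982547. By position, exons 1 to 26 were assigned to the Z-disc, 27 to 199 to the I-band (of which 105 to 172 to PEVK), 200 to 306 to the A-band and 307 to 312 to the M-band. The borders are approximate within a few exons. Circles were named by their first and last exon.

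The closing junctions of the circles on which the results turn are printed as RNA-sense cDNA of that transcript, 30 nt on each side. Lower case marks the end of the last exon and capitals mark the start of the first exon. The first set shows how circles shared ends: exons 84-118 and 85-118 closed from the same donor, exon 118, and exons 84-132 and 85-132 joined the same acceptors to exon 132.
exons 84-118, chr2:76857904-76884197: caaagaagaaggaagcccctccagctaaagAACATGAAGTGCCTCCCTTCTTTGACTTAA
exons 85-118, chr2:76857904-76881839: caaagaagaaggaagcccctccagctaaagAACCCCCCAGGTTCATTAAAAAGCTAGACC
exons 84-132, chr2:76850570-76884197: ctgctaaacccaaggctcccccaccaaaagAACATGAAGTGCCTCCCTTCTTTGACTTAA
exons 85-132, chr2:76850570-76881839: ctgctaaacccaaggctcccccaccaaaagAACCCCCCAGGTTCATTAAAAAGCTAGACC

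The next set holds the circle with most reads (exons 104-110), 2 short PEVK circles, the leading Z-disc and A-band circles, and a circle of the N2B exon, which is exon 46 of a 347-exon transcript and is not in the 312-exon transcript.
exons 104-110, chr2:76863274-76868085: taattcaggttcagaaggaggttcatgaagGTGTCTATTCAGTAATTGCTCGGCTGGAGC
exons 123-127, chr2:76853605-76856366: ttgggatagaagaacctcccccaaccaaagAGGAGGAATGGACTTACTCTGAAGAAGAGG
exons 130-132, chr2:76850570-76852137: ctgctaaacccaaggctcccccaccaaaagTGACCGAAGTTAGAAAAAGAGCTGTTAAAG
exons 2-5, chr2:76974016-76977296: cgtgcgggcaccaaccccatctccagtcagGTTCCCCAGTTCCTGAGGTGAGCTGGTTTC
exon 200, chr2:76795878-76796180: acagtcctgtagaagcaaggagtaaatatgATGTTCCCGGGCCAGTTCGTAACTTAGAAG
N2B circle, chr2:76906254-76909953: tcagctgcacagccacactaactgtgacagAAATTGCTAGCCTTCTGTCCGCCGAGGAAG

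The libraries were uneven. Read totals ran from 3963 to 100142 in sham and from 1119 to 36120 in TAC, and the libraries of sham replicate 2 (3963 reads) and TAC replicate 2 (1119 reads) stood far below the others, which had at least 17890. Sham replicate 4, the deepest, also stood apart, since 5.61% of its circles rested on 1 read against 44.9% to 64.3% in the other 7, so numbers of distinct circles are not comparable with it. Of 9 cardiomyocyte markers 8 had circles (Pln had none), with summed levels of 97.7 to 199.8 normalised reads in sham and 75.1 to 389.9 in TAC, and none of 8 skeletal muscle markers had any. Summed levels of the other cell types' markers were at most 0.379 in sham and 5.77 in TAC for smooth muscle and pericytes (3 of 5 in the table, Acta2 and Rgs5 at 0), 4.54 and 1.49 for fibroblasts (5 of 7, Postn and Tcf21 at 0), 36.3 and 41.97 for endothelium (5 of 5) and 19.0 and 24.2 for leukocytes (4 of 5, Csf1r at 0). Their part in the results below was not tested, and in bulk tissue a smaller number of cells of a type and less RNA per cell cannot be told apart.

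Ttn had the most distinct circles of all 6492 host genes. Its 160 circles gave 1832 reads in all, and 7 hosts gave more. Most of its circles were rare: 112 (70.0%) were listed in 1 library, against 61.6% of the circles of other hosts, and 92 (57.5%) rested on 1 read in the whole table. A few carried most of the signal. The 3 circles listed in all 8 libraries, exons 104-110, 85-118 and 84-118, held 1238 of the reads (67.6%), and 16 circles were listed in 4 or more libraries.

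Titin circles were long. An exonic Ttn circle spanned a median of 11 exons and 1788 nt when spliced, against 4 exons and 502 nt for exonic circles of other hosts, and 73 of the 139 spanned 10 or more exons. The circle of most exons, exons 118-256, spans 139 exons and 28803 nt from PEVK into the A-band and was seen as 1 read in TAC replicate 4.

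Most exonic Ttn circles had a length that keeps the reading frame. Spliced length was a multiple of 3 in 127 of the 139 exonic circles (91.4%) and in 38.4% of 22789 wholly coding circles of other hosts. In the transcript itself, 261 of the 312 exons (83.7%) have such a length. Of 138 circles read in the titin frame, 126 met no stop codon on 1 full turn, and these held 98.4% of the reads. These 126 were the circles whose length is a multiple of 3, and the other 12 met a stop. The count of stops thus repeats the count by length. Both describe the annotated sequence and no translation was measured. Introns next to the circles had a median of 239 nt, or 213 nt for the exonic circles listed in 4 or more libraries, and the median of all introns of the transcript was 167 nt.

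Position along the gene was uneven, as the plot of arcs along the exons shows. The I-band held 116 circles and 1651 reads (90.1%), and 1433 of these reads (78.2% of all Ttn reads) came from 52 circles that crossed a border of the PEVK run. Circles inside PEVK numbered 39 with 159 reads, and those wholly upstream of PEVK in the I-band numbered 23 with 57 reads. The A-band, with the most coding sequence, held 26 circles and 137 reads, 14 of these circles being of 1 exon. The Z-disc held 5 circles and 21 reads. In the M-band there were 7 circles, all intronic, with 17 reads, and 6 circles with 1 read each spanned regions. Exon 274, the largest at 17106 nt, was in no exonic circle.

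**Figure D1:**
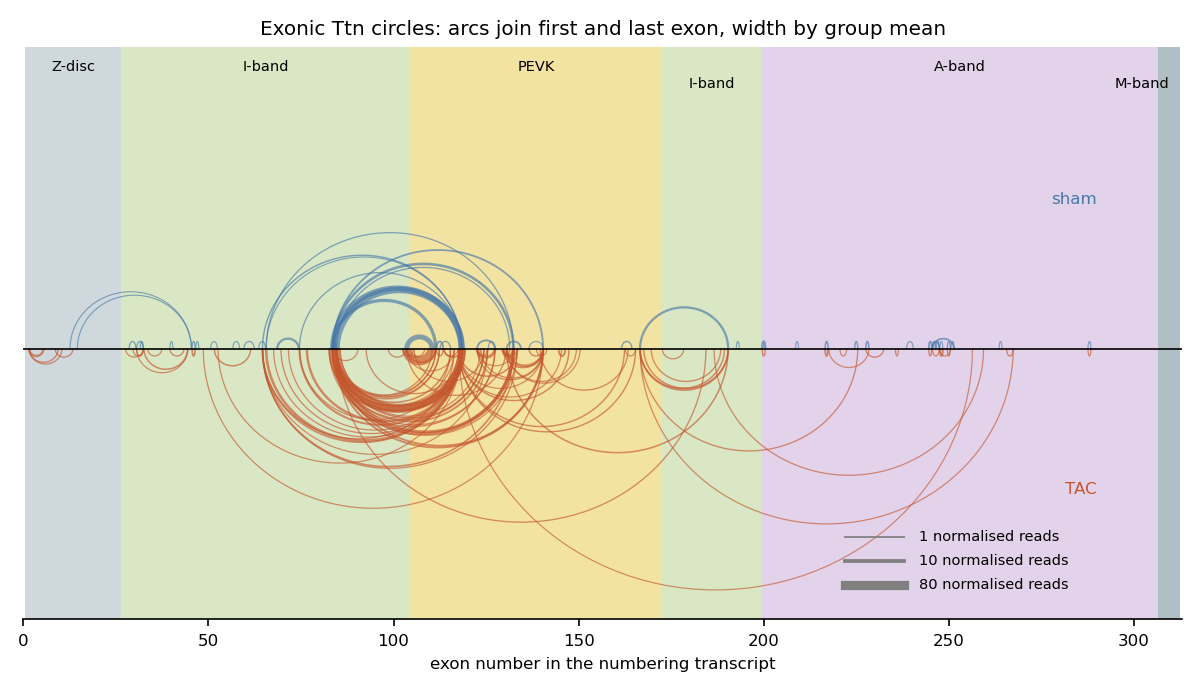
Exonic Ttn circles along the 312 exons (x axis, exon number), with sham above the line and TAC below. Each arc joins the first and the last exon of a circle, its height shows its span, its line width follows the mean of 4 libraries in normalised reads (key at lower right), and shading marks Z-disc, I-band, PEVK, A-band and M-band. The thick arcs gather between exons 84 and 132, and short A-band arcs are seen from exon 200 on.

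A few exons carried most of the reads. As donors, exon 118 ended 14 circles and 788 reads (43.0%), exon 110 ended 513 reads (28.0%) and exon 132 ended 90 reads. As acceptors, exon 104 began 519 reads (28.3%), exon 84 began 14 circles and 451 reads (24.6%), and exon 85 began 10 circles and 379 reads (20.7%). The 3 leading donors held 75.9% of the reads and the 3 leading acceptors 73.6%, although 79 exons served as donors and 77 as acceptors at least once. An intron of 2070 nt lies between the acceptor exons 84 and 85.

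The exonic circle with the highest mean, exons 104-110, is 780 nt long and joins the last I-band exon before PEVK to the sixth following exon, of 402 nt, inside PEVK. In sham replicates 1 to 4 it had 4.93, 63.6, 2.48 and 8.37 normalised reads (13, 14, 3 and 43 reads). The TAC replicates had 118.2, 11.5, 126.6 and 98.6 (159, 2, 123 and 155 reads). Thus 3 TAC libraries exceeded every sham library, while TAC replicate 2 lay below sham replicate 2, so the groups overlapped. The log2 fold change was 2.80 ± 0.96 (SE) by limma, with an adjusted p of 0.834, and 2.63 ± 0.86 by edgeR's quasi-likelihood test on the recovered reads, with an adjusted p of 0.0281. It was the only Ttn circle edgeR called, of 4 tested, where edgeR called 13.1% of all circles. That call was lost when any 1 of sham replicates 1, 3 and 4 or TAC replicates 1, 3 and 4 was left out (adjusted p 0.110 to 0.262 by edgeR), with RLE size factors or library totals (0.0628 and 0.0675), and by DESeq2 (0.140).

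Measured against circles of similar length, exons 104-110 separated the groups. Of all reads on circles of 600 to 1000 nt, it held 0.234%, 1.63%, 0.134% and 0.372% in the sham libraries and 1.83%, 3.85%, 2.29% and 1.76% in the TAC libraries, so that each TAC library exceeded each sham library. The 95% Wilson interval of TAC replicate 2 (2 of 52 reads), 1.06% to 12.98%, and that of sham replicate 2 (14 of 859), 0.973% to 2.72%, overlapped. This length class was chosen after the values were seen, and 2.96% of the 742 circles of that class listed in 4 or more libraries had groups that did not overlap on this measure.

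The pair of long circles from exon 118 differed in order between libraries. Exons 85-118 (34 exons, 6213 nt) had 15.5, 118.1, 3.31 and 9.92 normalised reads in sham and 64.7, 23.1, 80.3 and 36.9 in TAC. Its highest value was that of sham replicate 2, and the other sham libraries lay below every TAC library. For exons 84-118 (35 exons, 6501 nt), which includes 1 more exon, the values were 26.2, 40.9, 16.6 and 16.3 in sham and 38.7, 75.1, 25.7 and 66.8 in TAC, with overlapping groups. By limma the log2 fold changes were 1.52 ± 0.93 (adjusted p 0.834) and 1.02 ± 0.86 (adjusted p 0.842), and edgeR gave 0.87 ± 0.80 (adjusted p 0.507) and 0.94 ± 0.79 (adjusted p 0.461).

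**Figure D2:**
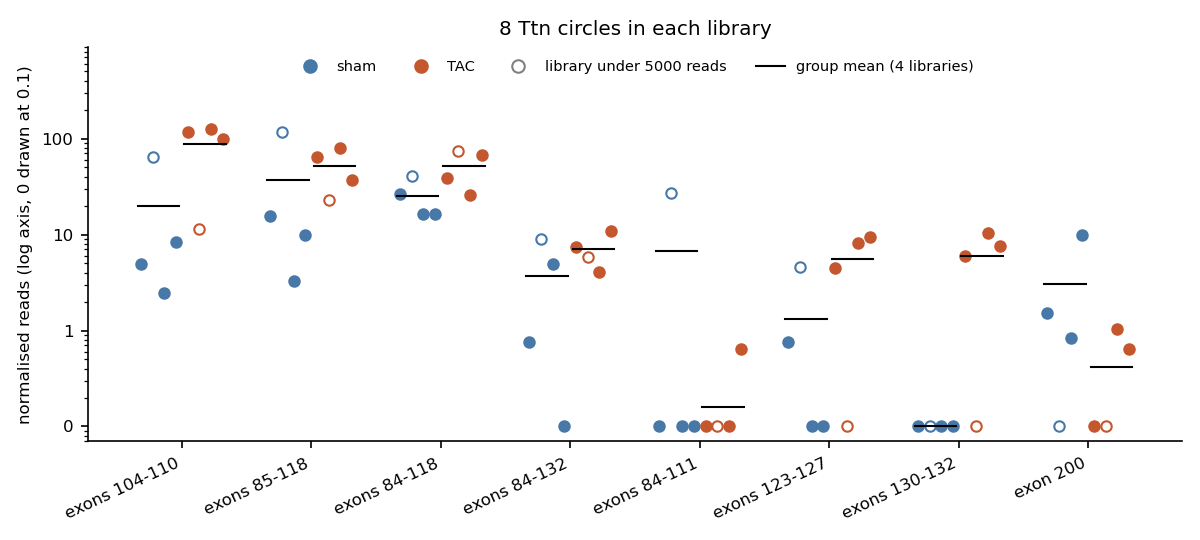
Normalised reads (y axis, log scale with 0 drawn at 0.1) of 8 Ttn circles (x axis) in each library. Filled points are libraries over 5000 reads, open points are sham replicate 2 and TAC replicate 2, and lines are means of 4 libraries. For exons 104-110 the 3 filled TAC points lie between 98.6 and 126.6, above all sham points, of which the highest is the open one at 63.6.

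The balance between the short and the long circles differed between libraries. Reads of exons 104-110 made up 7.10%, 21.2%, 5.56% and 14.98% of the Ttn reads in sham and 36.7%, 8.33%, 38.1% and 33.6% in TAC. Exons 85-118 and 84-118 together held 60.1%, 53.0%, 44.4% and 47.04% in sham and 32.1%, 70.8%, 31.9% and 35.3% in TAC. Among the 6 libraries over 5000 reads, those of TAC had the higher share of exons 104-110 and the lower share of the long pair. TAC replicate 2, with 24 Ttn reads, had the reverse.

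Circles ending at exon 132 were the next in level. For exons 84-132 (7785 nt) the sham libraries had 0.758, 9.09, 4.97 and 0 normalised reads and the TAC libraries had 7.44, 5.77, 4.12 and 10.8. The groups overlapped, and the log2 fold change was 1.98 ± 1.56 by limma (adjusted p 0.836) and 1.64 ± 0.88 by edgeR (adjusted p 0.193). Exons 85-132 (7497 nt) had no read in sham and 6, 2, 2 and 1 reads in TAC. Among the 16 Ttn circles tested by limma no other had groups that did not overlap, where 3.11% of all tested circles did not, but with no sham read it passed the filter only through its presence in all 4 TAC libraries, so that nothing can be read from this. Per read of the pooled group, the TAC level of exons 85-132 was 6.53-fold that of 3 sham reads, the limit that a count of 0 allows. This limit covers counting error of the sham count only, takes the TAC count as exact and pools the mice, so the value is no lower bound. Without sham replicate 4, which gave 100142 of the 162791 sham reads, the value was 2.51-fold.

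Short PEVK circles had fold changes of both signs, the negative one being smaller than its SE. Exons 130-132 (366 nt) had 8, 0, 10 and 12 reads in TAC and none in the 162791 sham reads. Per pooled read, its TAC level was 17.8-fold that of 3 sham reads, and 6.85-fold without sham replicate 4. As for exons 85-132, these values are no lower bounds. With all libraries exons 130-132 passed neither the filter of limma nor that of edgeR. DESeq2 gave this circle an adjusted p of 0.0490, where it called 14 circles higher and 9 lower of 27391. Without both libraries under 5000 reads edgeR tested it and gave an adjusted p of 0.00105, where edgeR called 30% of circles. With no sham read, the circle entered both fits only through its TAC reads, so that nothing can be read from these p-values. The circle of exons 123-127 (414 nt) had 2, 1, 0 and 0 reads in sham and 6, 0, 8 and 15 in TAC, with a log2 fold change of 2.19 ± 1.59 by limma (adjusted p 0.834). Exons 112-113 (156 nt), chosen after its values were seen, had 2, 0, 1 and 16 reads in sham and 1, 0, 0 and 1 in TAC, with -1.10 ± 1.29 by limma. Of its 19 sham reads, 16 came from sham replicate 4. Exon 140 ended 9 circles, not all of them short, from 330 nt (exons 137-140) to 18534 nt (exons 49-140). Some began upstream of PEVK, such as exons 84-140 (8715 nt, 8 reads) and 85-140 (8427 nt, 7 reads). The reads of the 9 circles summed to 1, 1, 0 and 0 in sham and 15, 0, 13 and 14 in TAC.

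Across the 16 circles that passed the filter on low values, limma called 0, where it called 0.0268% of all circles tested. At an unadjusted p under 0.05 there were 3 Ttn circles by limma, where 152 of all 3735 circles tested were. They were exons 104-110, 66-118 and exons 85-132, of which the last entered the test only through the TAC group. Of the 16 fold changes 13 were positive and 3 negative, with a median of 1.32 on the log2 scale against 0.15 over the 3735 circles tested. Another 7 tested circles, with 8 to 21 reads each, had log2 fold changes from -1.10 (exons 112-113) to 2.15 (exons 75-118, named after its values were seen). The other 144 circles were too rarely listed to be tested. Exons 66-118 (11577 nt, log2 fold change 3.10 ± 1.42, 1 read in sham and 18 in TAC) was singled out after its values were seen.

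Counts by presence include sham replicate 4, which listed 11 Ttn circles and had 5.61% of its circles on 1 read. They are therefore not comparable between the groups. By presence, 100 Ttn circles were listed in TAC libraries only and 35 in sham libraries only, where 48.0% and 24.6% of all circles in the table were. Restricted to circles in 2 or more libraries of a group and none of the other, there were 22 for TAC and 1 for sham, where 8.14% and 2.81% of all circles met these rules. In 3 or more TAC libraries and no sham library there were 10 Ttn circles, where 1.88% of all circles were. The N2B circle was among them, with 6, 0, 2 and 3 reads in TAC. It joins the N2B exon of 2646 nt and the next exon, and was chosen here after its values were seen.

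Outside the I-band the levels were low. The Z-disc circle with the highest mean, exons 2-5 (820 nt), had 10, 0, 1 and 5 reads in TAC and none in sham, and all 21 Z-disc reads were in TAC. A-band reads summed to 112 in sham, 77 of them from sham replicate 4, and to 25 in TAC. In normalised reads the A-band sum was 7.96, 4.54, 10.8 and 14.98 in sham and 5.20, 5.77, 2.06 and 9.54 in TAC, and the groups overlapped, also among the libraries over 5000 reads. Exon 200 (303 nt), by the rule used here the first A-band exon, forms a circle by itself, with 4, 0, 1 and 51 reads in sham and 0, 0, 1 and 1 in TAC. Its log2 fold change was -1.62 ± 1.44 by limma (adjusted p 0.842), and 51 of its 58 reads came from sham replicate 4. The circles of exon 228 (15 reads) and exon 247 (12 reads), chosen after their values were seen, were likewise in sham replicate 4 except for 1 read.

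As a share of the Ttn reads, the A-band made up 11.5%, 1.52%, 24.1% and 26.8% in sham and 1.62%, 4.17%, 0.619% and 3.25% in TAC. In the libraries over 5000 reads the TAC values lay below those of sham, and sham replicate 2 fell among the TAC values. The I-band made up 83.1%, 98.5%, 75.9% and 72.5% in sham and 95.4%, 95.8%, 98.1% and 93.5% in TAC. In normalised reads the I-band sum was 106.8 ± 126 in sham and 260.2 ± 87.6 in TAC (SD, n = 4), and the groups overlapped. The median spliced length of all back-spliced reads of a library was 394, 492, 369 and 353 nt in sham and 543, 334, 519 and 499 nt in TAC, and its part in these shares was not tested.

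**Figure D3:**
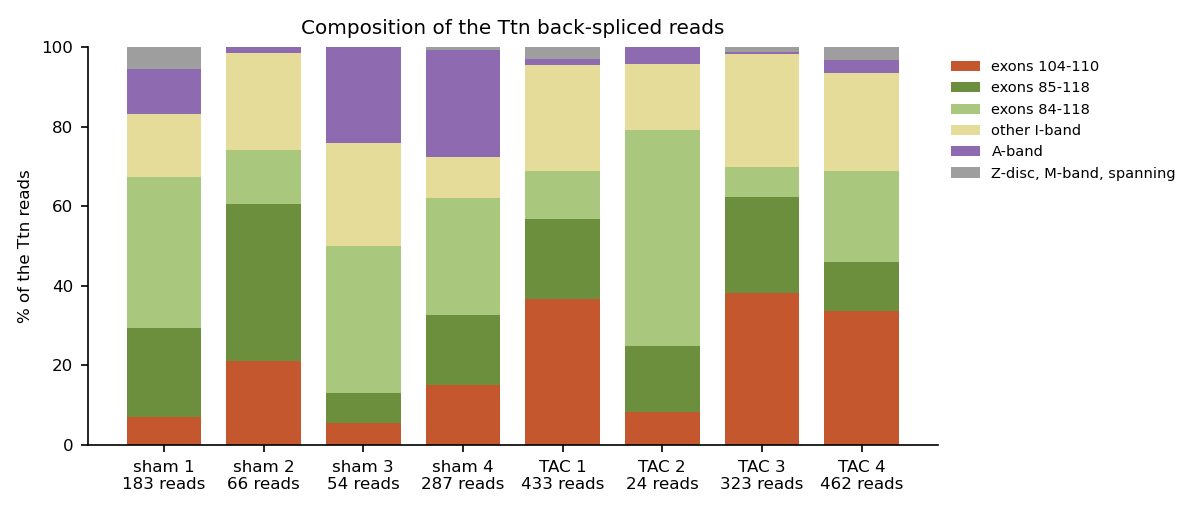
Composition of the Ttn back-spliced reads in each library (y axis, % of the library's Ttn reads, whose number stands under each bar). Exons 104-110 make up 33.6% to 38.1% in TAC replicates 1, 3 and 4 and at most 21.2% in the sham libraries, and A-band circles reach 26.8% in sham replicate 4.

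Intronic circles form when a spliced-out intron lariat escapes debranching, and they carry intron sequence. Of the 21 from Ttn, 7 began at the same base of the intron after exon 310 (467 nt, M-band) and had lengths of 437 to 463 nt, with 10 reads in sham and 7 in TAC. Another 3 began together in the intron after exon 109 (596 nt), which lies inside the circle of exons 104-110, with 3 reads in sham and 7 in TAC. The ciRNA with the highest mean in the M-band (chr2:76706000-76706439) had 3, 0, 0 and 2 reads in sham and 1, 0, 0 and 3 in TAC, and its log2 fold change was 0.34 ± 1.08 by limma (adjusted p 0.985).

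Summed over all its circles, Ttn had 69.4, 299.8, 44.7 and 55.8 normalised reads in the sham libraries and 322, 138.6, 332 and 294 in the TAC libraries. Sham replicate 2 was higher than TAC replicate 2, so the groups overlapped, and the other 3 sham libraries lay below all TAC libraries. The log2 fold change of the sum was 1.59 ± 0.40 by limma, with an adjusted p of 0.0612, where 0.0337% of 2967 hosts were called. By edgeR it was 1.17 ± 0.65 with an adjusted p of 0.259, where 8.24% of 1020 hosts were called. Without both libraries under 5000 reads the limma value was 2.50 ± 0.31 (adjusted p 5.83e-09, 12.4% of hosts called), and that of edgeR was 2.05 ± 0.32 (adjusted p 0.00044, 21.6% called). Leaving out sham replicate 2 alone gave 2.20 (adjusted p 4.79e-05) by limma. The limma SE of the sum followed the intensity trend, so its limma p-values rest little on the spread of Ttn between mice. With all libraries and no such trend the SE was 1.31 (adjusted p 0.999 by limma).

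The share of Ttn in all back-spliced reads was 0.449%, 1.67%, 0.302% and 0.287% in sham and 1.31%, 2.14%, 1.53% and 1.28% in TAC. These shares averaged 0.676% ± 0.664 and 1.57% ± 0.402 (SD, n = 4). By reads Ttn ranked 19, 2, 34 and 38 among the hosts of each sham library and 2, 2, 3 and 3 in the TAC libraries.

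Long circles of other genes moved with these shares. Circles over 2000 nt of all other hosts held 0.294%, 1.75%, 0.326% and 0.232% of their reads in sham and 1.42%, 2.21%, 1.13% and 1.01% in TAC, with sham replicate 2 again beside the TAC libraries. Within the reads on circles over 2000 nt of any gene, Ttn made up 50.2%, 40.4%, 36.3% and 36.9% in sham and 32.0%, 45.5%, 39.6% and 38.6% in TAC. The groups overlapped on this measure, which was chosen after the data were seen, with means of 40.9% ± 6.44 and 38.9% ± 5.51 (SD, n = 4). The sources do not say whether these lengths differ through the animals or the libraries, and the 2 cannot be told apart.

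**Figure D4:**
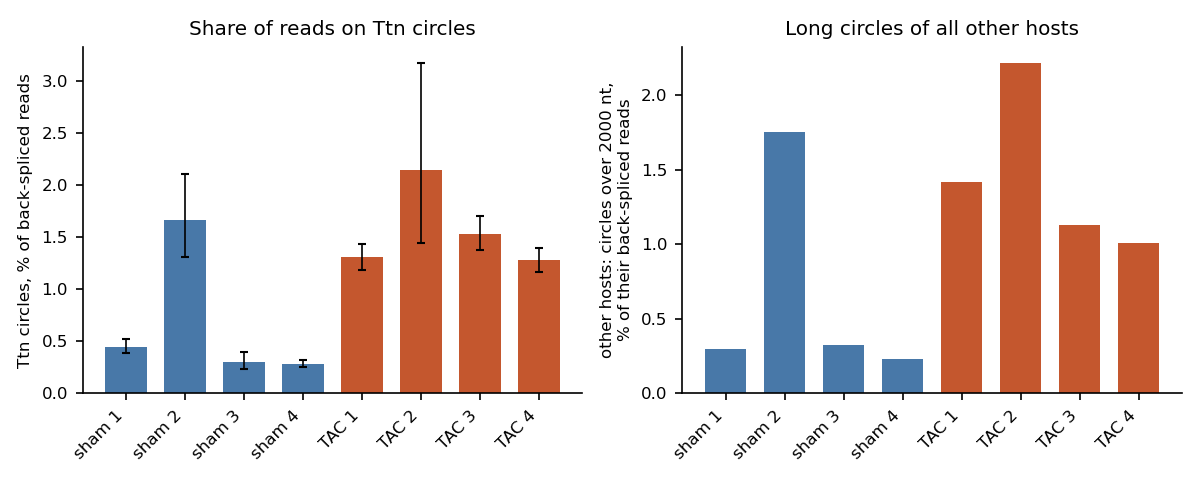
Left, Ttn circles as a percentage of all back-spliced reads in each library, with 95% Wilson intervals, which cover counting error only. Right, reads on circles over 2000 nt as a percentage of the reads of all other hosts. In both panels sham replicate 2 (1.67% and 1.75%) stands beside the TAC libraries and the other 3 sham libraries are lowest.

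With each library's trend on spliced length removed, the fold changes of the long Ttn circles fell in value. The trends were fitted on all circles tested by limma, those of Ttn included, so they can take up part of a Ttn difference. By limma, exons 85-118 then had -0.29 ± 0.97 (adjusted p 0.945) and exons 84-118 had -0.78 ± 0.98 (adjusted p 0.817), while exons 104-110 had 1.72 ± 1.03. Of the 16 circles 10 were positive and 6 negative, with a median of 0.15 against -0.10 over all circles. In edgeR with the same trend as an offset, the value of exons 104-110 was 0.91 ± 0.87 (adjusted p 0.547). There the median of all circles was -0.54, and 33 of 714 circles were called (4.62%), all lower in TAC and none of them of Ttn.

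**Figure D5:**
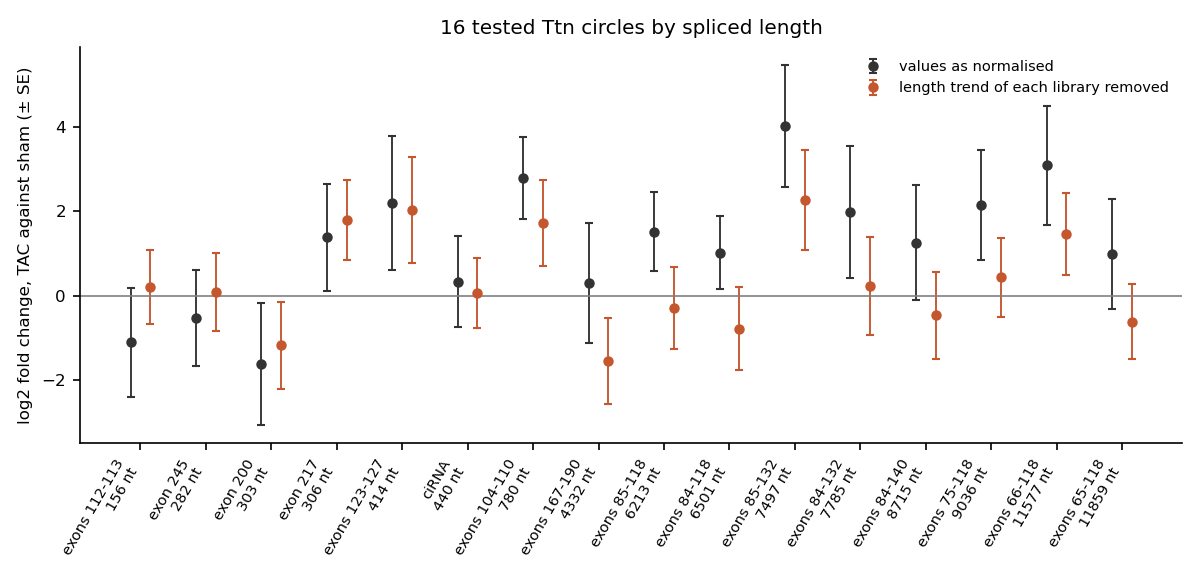
Log2 fold changes of TAC against sham by limma (y axis, ± SE) for the 16 tested Ttn circles in order of spliced length (x axis). Black points are the values as normalised and red points have each library's length trend removed. Red lies below black for every circle from 780 nt upwards and exons 104-110 keeps a positive value of 1.72.

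Without both libraries under 5000 reads, 14 Ttn circles were tested by limma and 5 were called, all higher in TAC, where 11.6% of all circles were called. Exons 104-110 then had a log2 fold change of 4.54 ± 0.42 (adjusted p 1.4e-23) by limma and 4.14 ± 0.44 (adjusted p 2.45e-05) by edgeR. These fits hold 3 libraries per group. The limma SE follows the intensity trend, so the limma p-values here do not measure the spread of a circle between mice. By limma, exons 85-118 had 2.81 ± 0.43 (adjusted p 6.68e-09), exons 123-127 had 4.46 ± 1.12 (adjusted p 0.00165) and exons 84-132 had 2.85 ± 0.86 (adjusted p 0.013). By edgeR these 3 had 2.37 ± 0.51 (adjusted p 0.00364), 4.48 ± 1.03 (adjusted p 0.00529) and 2.34 ± 1.02 (adjusted p 0.0912), so that exons 84-132 was not called. Exons 123-127 had too few sham reads for the edgeR filter and entered only through its TAC reads, so that nothing can be read from its edgeR p-value. Exons 84-118 had 1.07 with an adjusted p of 0.0634. The median over all circles was 0.45 in that fit.

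The hosts whose level ran most like that of Ttn over the 8 libraries were sought among 221 hosts listed in all of them, by the root mean square difference of centred log2 values. The 5 nearest were Ppp1r12b, a myosin phosphatase subunit, with 0.486, Stk39, a kinase of ion transport, with 0.506, Magi1, a junction scaffold, with 0.507, Rbm4, an RNA-binding splicing regulator, with 0.508, and Dlst, an enzyme of the citric acid cycle, with 0.508. The median over the 221 was 1.27. All 8 points share library and depth, and the measure is a description.

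Of 22 genes of titin's partners in the sarcomere, 16 had circles, 14 were tested by limma and 8 by edgeR, and neither called any. At an unadjusted p under 0.05 there were 0 by limma and 3 by edgeR, where 90 of all 2967 hosts and 245 of all 1020 hosts tested were. The median log2 fold change by limma was 1.20, with 11 positive and 3 negative, against 0.13 over all hosts. Among them, Pdlim5, a Z-disc scaffold, had 26.2 ± 4.58 normalised reads in sham and 76.3 ± 49.0 in TAC (SD, n = 4). Its TAC replicate 2 had 5.77, below every sham library. Mypn, another Z-disc protein, had 16.5 ± 2.07 and 42.1 ± 28.7, with no read in TAC replicate 2. The log2 fold change of Mypn was -0.29 ± 1.07 by limma and 1.09 ± 0.62 by edgeR. Myh6, the main adult myosin heavy chain of the mouse heart, had 12.3 ± 7.45 and 36.2 ± 17.2, with TAC replicate 2 (11.5) among the sham values.

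Titin-bound signalling and turnover proteins had circles for 13 of 18 genes. Limma tested 6 and edgeR 3, with 0 called and 0 at an unadjusted p under 0.05 by either tool, and the median was -0.60 by limma and 0.36 by edgeR. Fhl2, a LIM protein bound to the N2B segment, had 51.1 ± 16.02 normalised reads in sham and 115.4 ± 61.1 in TAC, with TAC replicate 2 (28.9) below every sham library. Camk2d, the main cardiac calmodulin-dependent kinase, had 4.57 ± 3.11 and 4.94 ± 4.26. All 15 splicing factors listed had circles. Limma tested 12 and called 0 (0 at an unadjusted p under 0.05), with a median of 0.78. EdgeR tested 4 and called 0, with 2 at an unadjusted p under 0.05, where 245 of all 1020 hosts tested were. Qk, which promotes circle formation in several tissues, had 35.5 ± 22.3 normalised reads in sham and 131.2 ± 89.9 in TAC, with TAC replicate 2 (5.77) below every sham library. Rbm20, the repressor of titin's I-band exons, had 13.96 ± 15.4 and 31.9 ± 17.96, and Mbnl1, a muscle splicing factor, had 12.0 ± 7.80 and 7.70 ± 5.40. These are circle levels, and the levels of the linear RNAs or proteins were not analysed here.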

How the data were processed

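The deposited table gives each circle's back-spliced read signal per library. Its values are the authors' reads divided by 1 size factor per library: every value was a whole multiple of its library's smallest (100% within 0.001), so whole reads were recovered, with totals of 1119 to 100142. The submitters' processing notes name mm10, HISAT2, StringTie and DESeq2. Neither the circle caller nor the strand is given in the sources used here. The table has no column of values without a sample.

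The main test was limma 3.58.1 with an intensity trend on log2(value + 0.195), for circles or host sums above 0 in at least 4 of 8 libraries, fitted on the whole table with Benjamini-Hochberg adjustment at 0.05. Fold changes are on that scale, which understates low circles, and the SE followed the intensity trend. In the main circle fit the prior degrees of freedom were infinite, so an SE took nothing from that circle's own spread between mice. As alternatives, edgeR 4.0.16 (TMM, robust quasi-likelihood, minimum count 5, minimum total 15) and DESeq2 1.42.0 were run on the recovered reads, besides other pseudocounts, filters and scalings, a robust loess of span 0.5 on spliced length, and left-out libraries. Scripts were tested on simulated data. An SE of edgeR is the fold change over the root of its F statistic.

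Regions count exons from each end of the 347-exon transcript: 27 for the Z-disc, 107 for the A-band and 6 for the M-band, and PEVK is the run of exons mostly of these residues. Named circles were those called by limma or edgeR, the 8 largest means, the largest mean per region, those in all libraries of 1 group and none of the other, the leading circles of 1 and of most exons, 5 alike hosts, and per list the called members or 3 largest means, 1 of which is not reported here. Members and lists were chosen with earlier results of these data known. Replicates are separate mice per the labels' protocols, numbered in accession order. Intervals and floors cover counting error only.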

Additional observations from a re-analysis of the deposited data

Results flagged for a closer look

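In 42 groups of 4 libraries, the highest or lowest library was compared with the gap to its nearest neighbour relative to the group's range, and 14 stood apart. Chance alone gives about 1 in 20 for independent groups, which these are not: 5 are circles read in 1 library of the group, which must stand apart, and the sums share reads. Sham replicate 2, with 3963 reads, was far above the other sham libraries in the Ttn sum (299.8 normalised reads), the share of Ttn (1.665%), the I-band sum (295.3), exons 85-118 (118.1), exons 104-110 (63.6), exons 84-111 (27.26), exons 69-74 (9.086) and exons 123-127 (4.543), of which the last is 1 read. Sham replicate 4, with 100142 reads, was far above the others for exon 200 (9.922 normalised reads). TAC replicate 2, with 24 Ttn reads, was lowest among TAC in the share of exons 104-110 (8.333%) and highest in the share of exons 85-118 and 84-118 together (70.83%). Exons 118-256 and 84-111 (0.636 normalised reads each, 1 read, TAC replicate 4) and exons 167-225 (1.029, 1 read, TAC replicate 3) were listed in no other TAC library.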

How the results depend on the processing

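Limma called 0 Ttn circles and edgeR 1, where they called 0.0268% and 13.1% of all circles. DESeq2 called 1, where it called 14 higher and 9 lower of 27391. Without both libraries under 5000 reads limma and edgeR called 5 each, where they called 11.6% and 30% of all circles. Those of edgeR include exons 130-132 and 123-127, which passed its filter there only through their TAC reads. With 1 library left out the number ran from 0 to 1 by limma and from 0 to 4 by edgeR, with 4 without sham replicate 2 or TAC replicate 2. Exons 130-132, with no sham read, and exons 123-127 were among the 4 both times. Of all circles, limma then called from 0 of 2647 (without TAC replicate 1) to 32 higher and 9 lower of 3685 (without TAC replicate 2). EdgeR called 145 higher and 103 lower of 1134 without sham replicate 2, and 145 and 85 of 1216 without TAC replicate 2. The log2 fold change of the host sum stayed positive in all alternatives run (0.970 to 2.50). It passed the threshold without sham replicate 2 (2.20, and 1.79 by edgeR), without TAC replicate 2 (1.89) and without both libraries under 5000 reads (2.50, and 2.05 by edgeR), and without the intensity trend its SE was 1.31 (adjusted p 0.999). With a library left out the host sum ran from 1.29 to 2.20 by limma and from 0.970 to 1.79 by edgeR. The log2 difference of the I-band sum was 1.82, and 0.22 as a share of the Ttn reads, and moving region borders by 5 exons gave 1.74 and 1.82. That of the Ttn share of all reads was 1.60, and -0.071 within reads on circles over 2000 nt. Signs turned with the length trend removed for exons 85-118 (-0.29 by limma, -0.77 by edgeR) and exons 84-118 (-0.78 and -0.30), in edgeR for exons 84-132 (-0.54), and for the ciRNA at 76706000 without sham replicate 2 or 3 (-0.028 each; the range over left-out libraries was -0.028 to 0.81). The cause was not tested. A length trend was not run on host sums, which mix lengths. No paired analysis was possible because the labels give no replicate numbers that the groups share. Of the 160 circles 92 rested on 1 read, too few for a test.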
